A study of Mus musculus with 12 samples.

Results

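The genes described here encode the integrins that mark white blood cells: the alpha chains Itgal, Itgam, Itgax, Itgad, Itgae and Itga4, and the beta chains Itgb1, Itgb2, Itgb2l and Itgb7. They were chosen by gene symbol from a fixed list of 10, and all 10 were found among the 32121 genes of the count table. RNA came from 12 pieces of spleen, 2 from each of 6 mice of the C57BL/6 strain, and was read as unstranded poly-A libraries of 14320833 to 22031026 counts. The first group, called SB, held 3 animals that carried VEC-Cre, the SB (Sleeping Beauty) transposase and the onc2 transposon. The second group, called WT, held 3 controls labelled wild type. VEC-Cre is a Cre recombinase under an endothelial promoter, the transposase is an enzyme that moves DNA transposons, and onc2 is a transposon whose insertions can alter nearby genes. Ages were not given, and no group with VEC-Cre alone or the transposon alone was analysed here, so the parts of the genotype cannot be told apart. The stated purpose was to see how alike the pieces of a spleen are, as a reading of clonality.

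Integrins are cell surface receptors made of 1 alpha and 1 beta chain, which bind other cells or matrix once talin and kindlin have switched them to an active shape. The beta 2 chain, Itgb2, pairs with Itgal (LFA-1, on most leukocytes), Itgam (Mac-1, on neutrophils, monocytes and macrophages), Itgax (dendritic cells and some macrophages) and Itgad (splenic macrophages in particular). Itga4 pairs with Itgb1 to bind Vcam1 or with Itgb7 to bind Madcam1, and Itgae pairs with Itgb7 to bind E-cadherin. Itgb2l is a beta 2-like chain known from mouse neutrophils.

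Itgam, Itgax and Itgad lie side by side on the forward strand of chromosome 7, at 128062640 to 128118491, 128129547 to 128150657 and 128154376 to 128223816 of the GRCm38 build, with Itgal on the same strand at 127296260 to 127335138. The other members lie elsewhere: Itgb1 on chromosome 8 at 128685654 to 128733200, Itgb2 on chromosome 10 at 77530252 to 77565708 and Itgb7 on chromosome 15 at 102215995 to 102231944. Itgae lies on chromosome 11 at 73090583 to 73147446, Itga4 on chromosome 2 at 79255426 to 79333123, and Itgb2l on chromosome 16 at 96422288 to 96443619. Promoter sequences, from RefSeq on GRCm38.p6, were matched for 6 of the 10 members: Itgam, Itgax, Itga4, Itgb1, Itgb2l and Itgb7. Each covers 250 bases before and 50 after the gene's start. Shown are 4 of them: the neighbours Itgam and Itgax, whose shares among the beta 2 partners differed in opposite directions, Itgb2l, which was highest in the same animal as Itgam, and Itgb1, the member that differed between the genotypes. Capitals mark 3 motifs searched on both strands. GAGGAA, a core pattern of the PU.1 factor, reads TTCCTC where it lies on the other strand. TGTGGT, a core pattern of Runx factors, then reads ACCACA, while GGGCGG, a pattern of Sp1, reads CCGCCC. None of the marked motifs overlapped another.
Itgam, chr7:128062390-128062689, forward strand: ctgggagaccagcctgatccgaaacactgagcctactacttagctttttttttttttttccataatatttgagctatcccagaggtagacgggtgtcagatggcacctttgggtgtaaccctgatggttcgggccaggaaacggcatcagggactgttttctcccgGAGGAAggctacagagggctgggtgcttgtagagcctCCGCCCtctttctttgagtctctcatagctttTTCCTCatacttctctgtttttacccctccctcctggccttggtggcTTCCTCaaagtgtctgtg
Itgax, chr7:128129300-128129599, forward strand: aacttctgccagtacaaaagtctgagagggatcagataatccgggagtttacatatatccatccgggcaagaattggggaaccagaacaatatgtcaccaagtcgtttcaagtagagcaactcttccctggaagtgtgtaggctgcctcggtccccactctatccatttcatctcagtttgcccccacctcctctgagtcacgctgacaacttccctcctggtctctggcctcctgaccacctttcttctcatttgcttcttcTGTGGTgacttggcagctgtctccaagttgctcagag
Itgb2l, chr16:96443565-96443864, reverse strand: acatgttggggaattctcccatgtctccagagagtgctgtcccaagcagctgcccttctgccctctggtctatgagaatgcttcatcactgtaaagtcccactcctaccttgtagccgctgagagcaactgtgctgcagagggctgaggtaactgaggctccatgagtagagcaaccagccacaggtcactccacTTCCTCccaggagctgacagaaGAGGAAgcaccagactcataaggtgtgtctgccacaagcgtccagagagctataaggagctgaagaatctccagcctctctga
Itgb1, chr8:128685404-128685703, forward strand: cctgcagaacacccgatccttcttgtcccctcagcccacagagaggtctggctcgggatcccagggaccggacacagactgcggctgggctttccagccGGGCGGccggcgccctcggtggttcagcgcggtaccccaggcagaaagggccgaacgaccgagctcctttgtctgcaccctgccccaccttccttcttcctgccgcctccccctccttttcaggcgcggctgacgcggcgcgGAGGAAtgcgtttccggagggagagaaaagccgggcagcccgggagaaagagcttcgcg
The Itgam window held 3 copies of GAGGAA and 1 of GGGCGG, and the Itgax window 0 copies of GAGGAA and 1 of TGTGGT. The Itgb2l window held 2 copies of GAGGAA, and the Itgb1 window held 1 of GAGGAA and 1 of GGGCGG. Among 32851 promoters of the same length, 28.3% held GAGGAA, 16.8% held TGTGGT and 35.7% held GGGCGG, so these letters are common and a match is a description of the window.

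Between SB and WT spleens, Itgb1 was higher in SB and the other members were not called, while most of them ranged over a much wider span among the SB animals than among the WT animals. All 10 members passed the filter on low counts, and 1 was higher and 0 were lower in SB by edgeR's quasi-likelihood test at a Benjamini-Hochberg adjusted p under 0.05, against 18.3% of the 17328 genes tested (8.59% higher and 9.75% lower). The median log2 change of the members was -0.12, beside 0.11 over all genes tested, which upper quartile scaling moved to -0.022. Of the genes called, 46.9% were higher in SB, and 36.7% under upper quartile scaling. At an unadjusted p under 0.05 the tested genes called came to 35.6%, and among the members only Itgb1 passed that as well. Values are CPM, counts scaled to a common library size after TMM normalisation, and genotype tests used the summed counts of both pieces of each animal, so the animal was the replicate.

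Itgb1, the beta chain shared by most matrix-binding integrins, stood at 524 and 374 CPM in both pieces of SB animal 1, 574 and 574 in those of SB animal 2, and 502 and 437 in those of SB animal 3. In WT it stood at 275 and 261, 270 and 273, and 277 and 265 CPM. All 6 SB libraries lay above all 6 WT libraries, as was so for 13% of the genes tested. Itgb1 and Itgax were the 2 members whose SB and WT libraries did not overlap, against 29.6% of all genes. Itgb1 averaged 498 ± 69.7 CPM in SB and 271 ± 1.91 CPM in WT (SD, n = 3 animals each). The log2 change was 0.91 (SE 0.17), with an adjusted p of 0.0180 by edgeR's quasi-likelihood test. The call was lost when any 1 WT animal was left out (adjusted p of 0.110 to 0.113, same test), with the log2 change at 0.89 to 0.90.

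Itga4, the alpha chain that pairs with it as VLA-4, did not differ beyond its spread. It stood at 284 and 185 CPM in both pieces of SB animal 1, 201 and 178 in those of SB animal 2, and 233 and 184 in those of SB animal 3, against 182 to 226 CPM in WT. The groups overlapped, and the highest library was piece 1 of SB animal 1. The log2 change was 0.11 (SE 0.16, adjusted p of 0.662 by edgeR's quasi-likelihood test), and its sign changed under upper quartile scaling (-0.025) and in piece 2 alone (-0.020).

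**Figure D1:**
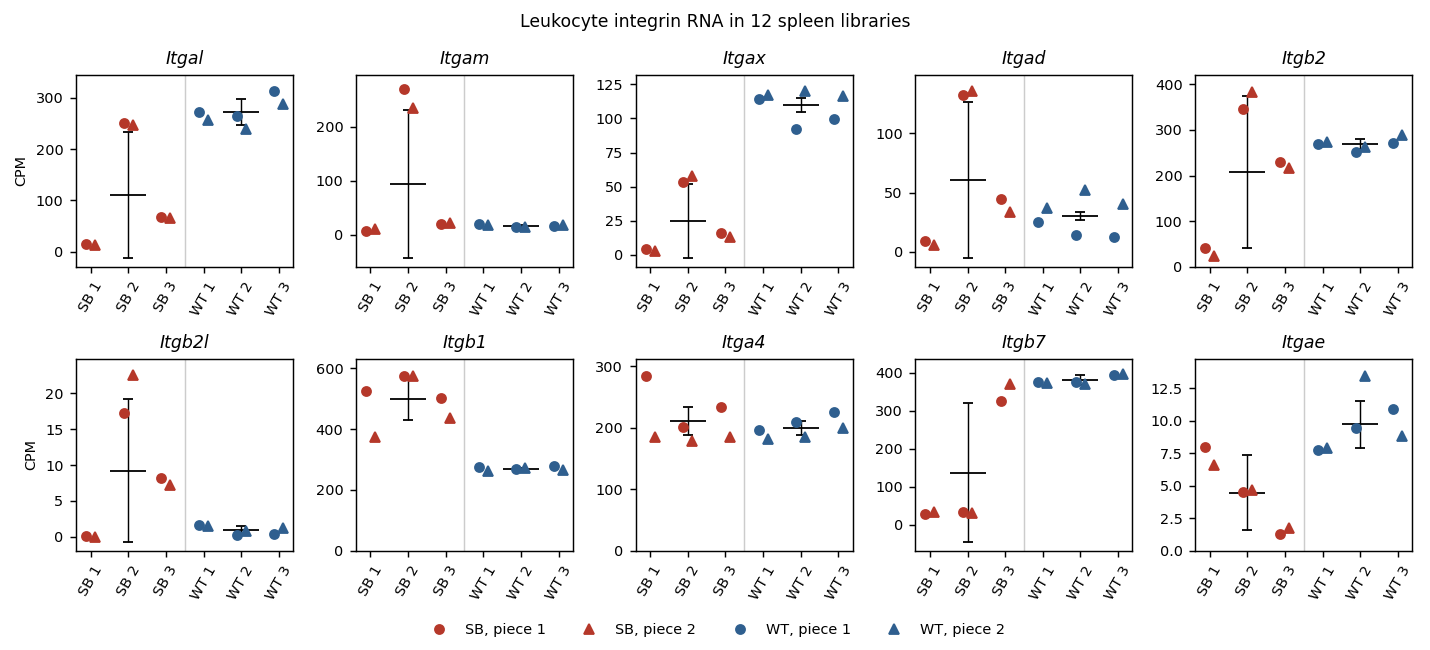
CPM of each of the 10 integrin genes in the 12 spleen libraries, with SB animals left and WT animals right of the grey line, circles for piece 1, triangles for piece 2, and bars for the mean and SD over 3 animals. Itgb1 is the member whose 6 SB libraries lie above the 6 WT libraries, Itgax the one whose 6 SB libraries lie below them, and lower SD bars that pass under 0 show only that the SD exceeds the mean.

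Itgal, the LFA-1 alpha chain, was lowest in SB animal 1 and nearest to WT in SB animal 2. It stood at 15.7 and 12.6 CPM in both pieces of SB animal 1, 250 and 246 in those of SB animal 2, and 68.5 and 65.1 in those of SB animal 3, against 272 and 257, 264 and 240, and 314 and 287 CPM in WT. SB animals 1 and 3 lay below every WT library, and both pieces of SB animal 2 lay within the range of the WT libraries. With the pieces summed, SB animal 2 stood at 249 CPM, just below the WT animals at 265, 253 and 302 CPM. The log2 change over animals was -1.29 (SE 0.90, adjusted p of 0.354 by edgeR's quasi-likelihood test). With SB animal 2 left out it was -2.73 (adjusted p of 0.0397, same test), so that 1 animal decided the call.

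Itgax, which marks dendritic cells in the spleen, stood at 4.59 and 3.01 CPM in both pieces of SB animal 1, 53.4 and 57.5 in those of SB animal 2, and 16.3 and 13.2 in those of SB animal 3. In WT it stood at 114 and 117, 92.3 and 120, and 99.8 and 116 CPM. All 6 SB libraries lay below all 6 WT libraries, as was so for 16.6% of the genes tested. The mean was 24.9 ± 27.6 CPM in SB and 110 ± 5.48 CPM in WT (SD over 3 animals a group). The log2 change was -2.12 (SE 0.88) and was not called (adjusted p of 0.146 by edgeR's quasi-likelihood test; 0.0155 without SB animal 2).

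Itgam, the Mac-1 alpha chain of neutrophils, monocytes and macrophages, stood at 7.41 and 10.4 CPM in both pieces of SB animal 1, 270 and 236 in those of SB animal 2, and 19.1 and 21.2 in those of SB animal 3. In WT it stood at 20.1 and 17.4, 14.5 and 14.1, and 16.8 and 17.4 CPM. SB animal 2 stood far above every other library, SB animal 1 below all WT libraries, and SB animal 3 near the top of WT. This gave a log2 change of 2.51 (SE 1.22, adjusted p of 0.196 by edgeR's quasi-likelihood test), and without SB animal 2 it was -0.18, so its direction rested on that animal.

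Itgad, the alpha chain of splenic red pulp macrophages, stood at 9.39 and 5.89 CPM in both pieces of SB animal 1, 132 and 136 in those of SB animal 2, and 44.7 and 33.9 in those of SB animal 3. In WT it stood at 25.1 and 37.0, 14.3 and 52.1, and 12.4 and 40.2 CPM. SB animal 2 lay above and SB animal 1 below all WT libraries. The log2 change of 1.05 (SE 0.89, adjusted p of 0.445 by edgeR's quasi-likelihood test) became -0.32 without SB animal 2.

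Itgb2, the beta chain of these 4 alpha chains, stood at 41.6 and 24.3 CPM in both pieces of SB animal 1, 346 and 383 in those of SB animal 2, and 230 and 217 in those of SB animal 3, against 251 to 288 CPM in WT. SB animal 2 lay above and SB animals 1 and 3 below every WT library. The log2 change of -0.34 (SE 0.74, adjusted p of 0.772 by edgeR's quasi-likelihood test) was 0.16 without SB animal 1.

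Itgb2l was at or near the floor in SB animal 1, with 3 counts in piece 1 and 0 in piece 2, where 3 counts correspond to 0.184 CPM. It stood at 17.3 and 22.6 CPM in the pieces of the second SB animal, with 8.13 and 7.25 CPM for the third. In WT it ranged over 0.263 to 1.61 CPM, which is 4 to 28 counts. SB animals 2 and 3 lay above every WT library and SB animal 1 below all of them. This gave a log2 change of 3.29 (SE 1.50, adjusted p of 0.173 by edgeR's quasi-likelihood test), and it was called with SB animal 1 left out (3.87, adjusted p of 0.0188, same test). Without SB animal 2 it was 2.02 (adjusted p of 0.318, same test), and limma voom on the 12 libraries gave 1.62 (adjusted p of 0.586).

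Itgb7, the beta chain of gut-homing and mucosal integrins, was split among the SB animals. It stood at 29.1 and 32.8 CPM in both pieces of SB animal 1, 32.9 and 31.3 in those of SB animal 2, and 326 and 372 in those of SB animal 3. In WT it ranged over 370 to 398 CPM. SB animals 1 and 2 lay more than 3 log2 units below the WT mean (-3.61 and -3.55), and piece 2 of SB animal 3 lay within the WT range. The log2 change was -1.46 (SE 0.98, adjusted p of 0.331 by edgeR's quasi-likelihood test), and without SB animal 3 it was -3.57 (adjusted p of 0.00234, same test). Xist, the RNA of the inactive X chromosome, divided the animals the same way: it stood at 1970 and 2590 CPM in both pieces of SB animal 1 and 951 and 1014 in those of SB animal 2, against 2.13 and 1.18 in those of SB animal 3 and 1.18 to 3.45 CPM in WT. Xist was thus high in 2 of 3 SB animals and low in all WT animals. It is a mark of female sex, and the titles name SB animals 1 and 2 with the letter F and SB animal 3 with M. The WT titles hold no such letter. By Xist, sex moved in part with genotype, which bears on every SB against WT value here. In SB animals 1 and 2 sex and genotype cannot be told apart, and the part of sex was not tested. For Itgb1, SB animal 3, with Xist low, stood 0.78 log2 units above the WT mean, beside 0.74 and 1.10 in SB animals 1 and 2.

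Itgae, the alpha chain CD103 of mucosal T cells and some dendritic cells, was low throughout. It stood at 7.99 and 6.57 CPM in both pieces of SB animal 1, 4.55 and 4.64 in those of SB animal 2, and 1.28 and 1.73 in those of SB animal 3, against 7.72 and 7.91, 9.42 and 13.4, and 10.9 and 8.86 CPM in WT. SB animals 2 and 3 lay below every WT library, while piece 1 of SB animal 1 overlapped the WT range. The log2 change was -1.10 (SE 0.58, adjusted p of 0.224 by edgeR's quasi-likelihood test).

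The SB animals differed from one another in most members, and no member was called among the WT animals. An edgeR F test over the 3 animals, with error from the pieces of 1 spleen, called 8 of 10 members among the SB animals (all but Itga4, adjusted p of 0.330, and Itgb1, adjusted p of 0.0691). The same test called 72.9% of all 15523 genes among the SB animals, so the members' share was near the background. Among the WT animals it called 0 of 10 members, against 0.47% of genes. The span between the highest and lowest SB animal was 7.78 log2 units for Itgb2l, 4.84 for Itgam, 4.14 for Itgal and 4.13 for Itgad, beside a median of 1.06 over all genes. It was 0.36 for Itgb1 and 0.30 for Itga4. These p-values compare these spleens only.

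**Figure D2:**
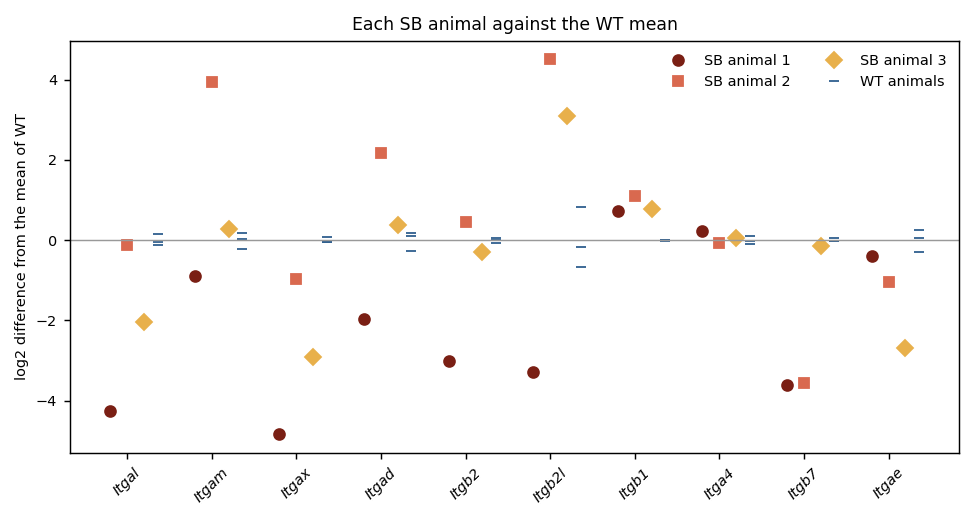
Difference of each SB animal from the WT mean, in log2 units, for the 10 integrin genes (circles, squares and diamonds for SB animals 1, 2 and 3), with WT animals as blue dashes at the right of each gene. SB animal 2 stands highest for Itgam (3.95) and Itgad (2.18), all 3 SB animals lie above 0 for Itgb1, SB animals 1 and 2 lie together at the bottom for Itgb7, and the low SB animal 1 point of Itgb2l rests on 3 counts and depends on the prior count.

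Per kilobase of exon, which allows levels to be set between genes, the order in WT was Itgb7 (138 ± 4.22 CPM per kb), Itgb2 (88.4 ± 3.57), Itgb1 (66.4 ± 0.468), Itgal (41.6 ± 3.92), Itgax (22.9 ± 1.14), Itga4 (14.3 ± 0.897), Itgad (6.64 ± 1.03), Itgam (3.32 ± 0.435), Itgae (2.14 ± 0.397) and Itgb2l (0.225 ± 0.124; SD, n = 3 each). On these lengths each pair of WT neighbours was further apart than their SDs, but the place of Itgam depends on the length used. The same counts were also divided by the exon bases that no other gene shares, 1574 of 5024 for Itgam. Itgam then took a larger share of the 4 beta 2 partners than Itgad in WT animals 1 (13.9% and 10.3%) and 3 (12.6% and 7.92%). In WT animal 2 the shares were about the same (11.5% and 11.7%). That length is apt only if reads in shared bases went uncounted. In SB the order of means began with Itgb1 (122 ± 17.1 CPM per kb), followed by Itgb2 (68.4 ± 55.3) and Itgb7 (49.4 ± 66.0), whose SDs overlapped. In SB animal 2, Itgam stood at 50.1 CPM per kb, above Itgal at 37.9, whereas in each WT animal Itgal stood higher. The level of Itgam against other genes is uncertain, since Gm49368 on the same strand covers 68.7% of its exon bases and held 0 to 3 counts per library, and how shared reads were counted is not given in the sources used here.

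Within the 4 alpha chains of the beta 2 chain, length-scaled shares do not depend on scaling between libraries. Itgal took 33.7%, 29.3% and 39.2% in SB animals 1, 2 and 3, against 53.5%, 54.2% and 59.6% in WT. Itgax took 12.5%, 9.02% and 11.8% in SB and 32.2%, 31.3% and 28.9% in WT. In both, every SB animal was below every WT animal.
Itgam took 27.1%, 38.6% and 15.4% in SB and 4.93%, 4.02% and 4.39% in WT, and Itgad took 26.7%, 23.1% and 33.6% in SB and 9.36%, 10.4% and 7.08% in WT. Every SB animal was above every WT animal in both, including SB animal 1, whose CPM of both genes was below that of WT. The differences of means were -21.8 percentage points for Itgal, 22.6 for Itgam, -19.7 for Itgax and 18.9 for Itgad. Each gave p = 0.1 in a two-sided exact permutation test over 3 against 3 animals, the smallest that design allows, and the 4 shares are parts of 1 sum and so are not independent. With lengths from exon bases that no other gene shares, a choice made after seeing the data, the differences were -28.8 for Itgal, 37.8 for Itgam, -20.7 for Itgax and 11.6 for Itgad.

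**Figure D3:**
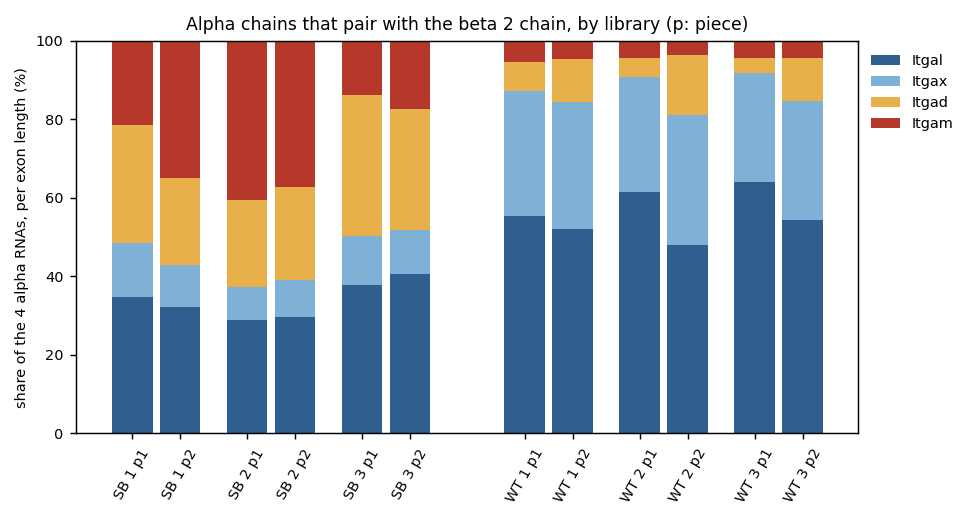
Shares in percent of Itgal, Itgax, Itgad and Itgam in their length-scaled sum, stacked per library, with the SB pieces left and the WT pieces right (p, piece). Itgal and Itgax together fill most of each WT bar, and Itgam and Itgad together fill the larger part of the 4 bars of SB animals 1 and 2.

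Ratios between beta chains, and of Itgae to Itga4, also separated the SB from the WT animals. The log2 ratio of Itgb7 to Itgb1, taken per exon length, was -3.33, -3.61 and 0.13 in SB animals 1, 2 and 3, and 1.05, 1.02 and 1.10 in WT. That of Itgb2 to Itgb1 was -3.34, -0.22 and -0.65 in SB and 0.44, 0.34 and 0.46 in WT, and that of Itgae to Itga4 was -3.41, -3.74 and -5.52 in SB and -2.98, -2.50 and -2.81 in WT. Every SB animal lay below every WT animal in all 3 ratios. The differences of means were -3.32, -1.82 and -1.46, each with p = 0.1 in the exact permutation test. Both beta chain ratios are divided by Itgb1, the member called higher in SB, so they are not independent of that call. In SB animal 2, Itgb2 itself stood 0.45 log2 units above the WT mean, beside 1.10 for Itgb1. The size of the differences of means rested on single SB animals. The Itgb2 to Itgb1 difference was -0.85 without SB animal 1. Without SB animal 3, the Itgae to Itga4 difference was -0.81 and the Itgb7 to Itgb1 difference was -4.52.

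In bulk tissue, fewer cells of a type and less RNA per cell cannot be told apart, and the marker genes of the cells that carry these integrins also differed. Marker calls come from the genotype test, which called 18.3% of all genes tested. The 6 B cell markers summed to 49.7 to 132 CPM in SB and 6056 to 7980 in WT, and 6 of 6 fell. The 6 T cell markers summed to 8.98 to 77.3 CPM in SB and 506 to 673 in WT, and 4 of 6 fell. SB animal 3, in which Itgb7 stayed near WT, had 51.1 CPM of B cell and 9.57 CPM of T cell markers, against WT means of 6927 and 583. SB animal 2, in which Itgal was near WT, had 97.3 and 74.6 CPM. Dendritic cell markers summed to 26.1 to 107 CPM in SB and 136 to 174 in WT, beside the low Itgax, with 2 of 6 lower. In SB animal 2 they were split. Zbtb46 (38.1 CPM, WT mean 31.4), Xcr1 (21.3 and 18.3) and Siglech (29.0 and 20.8) were above WT there. Flt3 (11.3 and 47.6), Clec9a (5.23 and 24.0) and Cd209a (1.59 and 13.2) were below it.
Monocyte and macrophage markers summed to 344, 3932 and 364 CPM in SB animals 1, 2 and 3 and 502 in WT, with 1 of 6 higher, and red pulp macrophage markers to 961, 6440 and 1091 in SB and 1206 in WT, with 1 of 6 higher. Both were highest in SB animal 2, as were Itgam and Itgad. The red pulp marker called was Mrc1, which at 679 CPM made up most of that sum in SB animal 1 (WT mean 73.3). Below their WT means in SB animal 1 were Spic (12.6 and 96.1 CPM), Vcam1 (141 and 333), Hmox1 (40.9 and 389), Slc40a1 (51.2 and 258) and Cd5l (25.1 and 48.1). Mature neutrophil markers summed to 59.7, 1755 and 756 CPM in SB and 194 in WT, with 0 of 8 called, and SB animals 2 and 3 were high and SB animal 1 low, as for Itgb2l. Megakaryocyte markers summed to 3202, 1012 and 4147 CPM in SB and 445 in WT (3 of 6 higher), proliferation markers to 1623, 3266 and 2356 in SB and 601 in WT (5 of 6 higher), and promyelocyte markers to 614, 336 and 394 in SB and 34.1 in WT (4 of 5 higher). NK cell markers summed to 3.01 to 36.3 CPM in SB and 32.1 to 63.1 in WT, with 0 of 6 called, and in SB animal 3 1 of them was at 0. Mast cell markers summed to 868, 65.3 and 263 CPM in SB and 58.4 in WT, with 1 of 6 higher (Gata2). In SB animal 3 that sum was Kit (139 CPM) and Gata2 (124 CPM), which progenitors also express, while Cpa3, Fcer1a, Ms4a2 and Mcpt8 were at 0.121 to 0.386 CPM there, each below its WT mean. Erythroid markers summed to 3204, 40068 and 4178 CPM in SB and 34143 in WT (1 of 8 higher), endothelial markers to 683, 522 and 883 in SB and 563 in WT (2 of 6 higher, 1 lower) and stromal markers to 99.4, 269 and 190 in SB and 689 in WT (1 of 6 higher, 2 lower). The part of cell composition in the members' values was not tested.

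The genes nearest to each member in profile over the 12 libraries, by root-mean-square (RMS) difference of centred log2 CPM among 11673 candidates, were Mfhas1 (0.21), Slfn2 (0.21) and Gfra2 (0.24) for Itgal, and Ncf4 (0.23), Irf8 (0.24) and Asb2 (0.26) for Itgax. For Itgam they were Apoe (0.32), Clec4a2 (0.35) and Scamp5 (0.36), and for Itgad Abcc3 (0.23), Slc40a1 (0.27) and Gdf6 (0.33). Itgb2 was nearest to Gpr35 (0.19), Epb41l3 (0.23) and Ly6c2 (0.28), and Itgb2l to Cd177 (0.63), Retnlg (0.66) and Ltf (0.69), genes of neutrophils. Itgb7 was nearest to Esm1 (0.36), Nlrc3 (0.42) and Tespa1 (0.44), and Itgae to Lmo4 (0.23), 4933412E12Rik (0.26) and Zmynd11 (0.29). Genes near Itgb1 included Ap2a1 (0.09) and Kctd9 (0.10), and Itga4 was nearest to Rsbn1l (0.04), Lin7c (0.07) and Fam160b1 (0.08). Among the members themselves, the closest pair was Itgal and Itgax (0.43), followed by Itga4 and Itgb1 (0.45). The 2 pieces of an animal share that animal, so the 12 libraries are not independent. With the pieces summed, over 6 animals, 18 of the 30 nearest genes were found again.

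Between the pieces of a spleen, Itgad differed in WT and no member was called in SB. In WT, Itgad was higher in piece 2 in 3 of 3 animals, where 56.1% of genes moved 1 way in all 3, with 37.0, 52.1 and 40.2 CPM in piece 2 of WT animals 1, 2 and 3, against 25.1, 14.3 and 12.4 CPM in piece 1. The log2 difference was 1.35 (SE 0.24, adjusted p of 0.0149 by edgeR's quasi-likelihood test with the animal as a block). It was 1 of 10 members called, against 9.75% of 15523 genes (6.47% higher). In SB, 0 of 10 members were called, against 0.00644% of genes (22% at an unadjusted p under 0.05, among them the members Itga4 and Itgb1). Itga4 stood lower in piece 2 in 3 of 3 SB animals, where 42% of genes moved 1 way in all 3, with a log2 difference of -0.37 (SE 0.08, adjusted p of 0.0897, same test; 0.0351 without SB animal 2).
For Itgad the SB effect was -0.26 (SE 0.23), and the difference between the genotypes, SB minus WT, was -1.61 (SE 0.33, adjusted p of 0.0575, same test), beside 1.37% of genes called and 0 members (at an unadjusted p under 0.05, 18.2% of genes and the members Itgad and Itgax). Without WT animal 1 that difference was called (-2.05, adjusted p of 0.000523, same test). The WT call for Itgad was lost without WT animal 2 (log2 difference 1.10, adjusted p of 0.121), WT animal 3 (1.19, 0.101) or SB animal 1 (1.35, 0.0840) in the same edgeR fit, with the difference still positive. Section letters A and B in WT were set as pieces 1 and 2, and no position in the spleen was given. Red pulp macrophage markers were higher in WT piece 2 for 6 of 6 genes, and erythroid markers for 8 of 8, with median log2 differences of 0.92 and 1.08. Other lists held calls in the same direction: 4 of 6 endothelial, 3 of 6 NK cell (median 0.71), 3 of 8 mature neutrophil (0.95), 3 of 6 stromal (with 1 lower), 3 of 6 proliferation and 2 of 6 monocyte and macrophage markers. B cell markers had 0 higher and 1 of 6 lower. The red pulp sum was 1252, 1744 and 1658 CPM in piece 2 of WT animals 1, 2 and 3, against 998, 763 and 818 CPM in piece 1. The part of where each piece was cut was not tested.

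**Figure D4:**
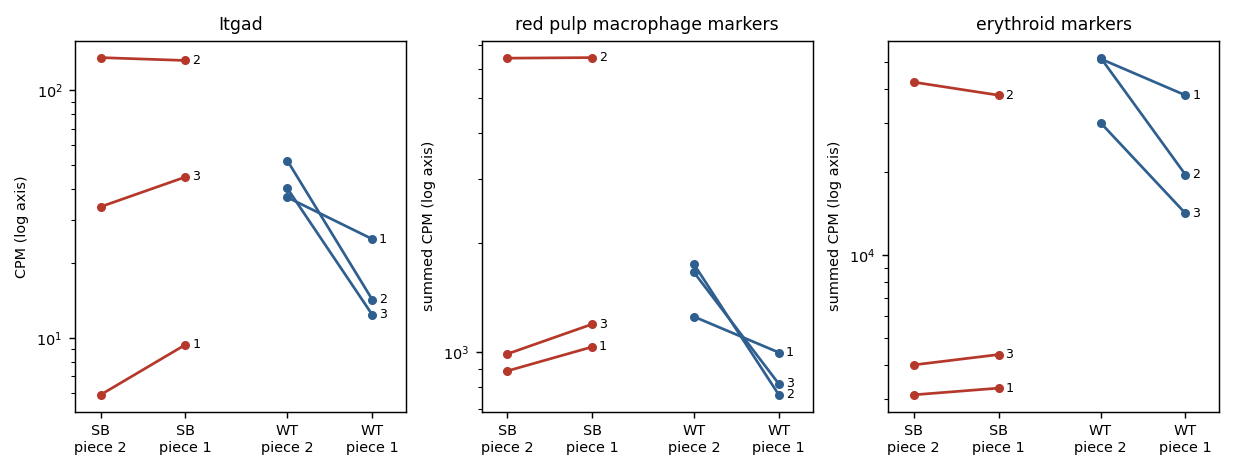
Itgad in CPM and the summed CPM of red pulp macrophage and erythroid markers in pieces 2 and 1, on log axes, with SB animals left in red and WT animals right in blue, lines joining pieces of 1 spleen and numbers giving the animal. All 3 WT lines are higher at piece 2 in each panel, and for Itgad the SB lines are lower or about level there.

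Genes that switch integrins on and anchor them to actin moved in both directions. Of 27 tested genes of activation and linkage, 3 were higher, 5 lower and 19 not called in SB (edgeR's quasi-likelihood test, against 18.3% called among all genes), with a median log2 change of -0.0032. Talin 1 (Tln1), which binds the beta tail, was at 1334 ± 264 CPM in SB and 761 ± 5.07 in WT (log2 0.84, SE 0.22, adjusted p of 0.0460 by edgeR). Vinculin (Vcl), which ties talin to actin, was higher by 2.64 log2 units (97.9 ± 75.4 CPM in SB and 16.0 ± 1.48 in WT), and Fyb, an adaptor of the talin pathway in leukocytes, by 0.92 (180 ± 36.9 and 97.4 ± 4.37 CPM in SB and WT).
Cyth1, which binds the beta 2 tail, fell by 2.20 log2 units (44.8, 83.3 and 45.5 CPM in SB and 271 ± 8.43 in WT), Rasgrp2, which activates Rap1, by 1.01 (223 ± 44.8 in SB and 461 ± 26.1 in WT) and Rassf5, a Rap1 effector, by 0.86 (140 ± 8.72 in SB and 259 ± 9.14 in WT). The kinase Syk fell by 1.80 (230 ± 101 CPM in SB and 821 ± 44.3 in WT). Kindlin 3 (Fermt3), the leukocyte kindlin, was at 929 ± 477 CPM in SB and 385 ± 19.8 in WT but was not called (adjusted p of 0.0623 by edgeR), nor were Rap1b (533 ± 116 and 457 ± 20.5 CPM in SB and WT) and Lyn (258 ± 179 and 379 ± 21.2).

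Of 15 ligands and counter-receptors tested, 2 were higher, 3 lower and 10 not called, with a median log2 change of 0.58. Over all genes tested, 8.59% were higher and 9.75% lower. Madcam1, the ligand of Itga4 with Itgb7, fell by 3.46 log2 units (3.13 ± 2.28 CPM in SB and 35.2 ± 6.62 in WT, SD, n = 3 each, as for the other genes here). The ligands Thy1 fell by 2.73 (12.8 ± 8.30 and 87.1 ± 4.21 CPM in SB and WT) and Jam3 by 1.75 (3.24 ± 0.789 and 11.1 ± 1.04). F11r, which binds LFA-1, was higher by 1.67 (80.8 ± 41.5 and 25.9 ± 2.41), and Spp1, a ligand of Itga4 with Itgb1, by 3.52 (9.33 ± 3.81 and 0.827 ± 0.130). Vcam1, the ligand of VLA-4 and a marker of red pulp macrophages, was not called (827 ± 959 and 333 ± 15.7 CPM), nor were C3 (264 ± 189 and 791 ± 148) and Emilin1 (199 ± 159 and 56.5 ± 4.62).

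Among 17 other integrin chains tested, 2 were higher, 0 lower and 15 not called, with a median log2 change of -0.013. The shares over all genes tested were 8.59% higher and 9.75% lower. Itga2b, the platelet alpha chain, was at 2275 CPM in the first SB animal, 250 in the second and 3176 in the third, beside 132 ± 48.2 in WT (log2 3.89, SE 0.94, adjusted p of 0.0392 by edgeR's quasi-likelihood test). Itga5, the fibronectin receptor chain that pairs with Itgb1, was at 150, 53.5 and 66.2 CPM in SB and 14.4 ± 0.704 in WT (log2 2.68, SE 0.43, adjusted p of 0.0127, same test). All 6 SB libraries lay above all 6 WT libraries for both genes, as they did for Itgb1 and for 13% of all genes tested. The not-called Itgb3 (530 ± 471 CPM in SB and 153 ± 50.4 in WT), Itga6 (131 ± 89.1 in SB and 72.2 ± 2.27 in WT) and Itga9 (96.6 ± 106 in SB and 30.6 ± 2.00 in WT) varied widely among the SB animals.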

How the data were processed

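Poly-A RNA of 12 spleen pieces was sequenced with an unstranded kit, per the labels' protocols. What the authors deposited is a table of raw read counts per Ensembl gene, as its whole numbers and unequal column totals show. The submitters' processing notes name STAR 2.5.3a, limma, mm10 and GRCm38 without their roles; the counting mode is not given in the sources used here. Of 32121 identifiers, 32026 matched the GENCODE M21 annotation of GRCm38. Depth ran over 14320833 to 22031026 counts per library. The detection floor was set at 3 counts and covers counting error only.

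Groups followed the genotype labels, and the labels do not say how the animals were bred, so genotype p-values measure the spread between these animals. Those of the piece tests and of the F test over animals rest on the spread between pieces. Counts of both pieces were summed per animal for the genotype test, made with edgeR 4.0.16 in R 4.3.3 (TMM, filterByExpr, robust quasi-likelihood fit, two-sided, Benjamini-Hochberg adjusted p under 0.05). Piece tests used 12 libraries with the animal as a block, since both pieces named in the titles come from 1 animal. The scripts were tested on simulated data. SE was taken from the F statistic, CPM used TMM-scaled library sizes, and profiles used log2 CPM with a prior count of 2. Alternatives were DESeq2 1.42.0, limma 3.58.1 voom, other scalings and filters, single pieces and each animal left out.

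The members and lists were chosen with earlier results of these data known. Named were all 10 members, of each pathway list up to 4 called genes per direction by adjusted p and the 3 uncalled genes of highest CPM, and the 3 genes nearest to each member in profile, of which 1 is not reported here. Reads of overlapping genes cannot be told apart by strand: Itgad shares 8.60% of its exon bases with 4931431B13Rik on the other strand, and Itga4 shares 8.04% with Cerkl.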

Additional observations from a re-analysis of the deposited data

How the results depend on the processing

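The values are limited by 3 animals per group and by the spread among SB animals, for which the common coefficient of variation over all 6 animals was 49.7%. Of 3178 genes called between genotypes, 46.9% were higher in SB, and 36.7% under upper quartile scaling. DESeq2 called 5523 genes and 2 members (Itgb1 and Itgb2l), and gave no adjusted p for Itgb7 (log2 change -1.47). Voom on the 12 libraries called 4 members (Itgal, Itgax, Itgb1 and Itgb7). The cause of these differences between methods was not tested. Leaving out each animal gave 554 to 6409 genes (818, 554 and 636 without WT animals 1, 2 and 3, and 6409 without SB animal 2), a higher share of 15.5% to 49.7%, and 0 to 3 members. Over these, the log2 change ranged from -0.18 to 3.05 for Itgam, -0.32 to 1.57 for Itgad, -1.05 to 0.16 for Itgb2 and 2.02 to 3.87 for Itgb2l. Itga4 was at -0.025 under upper quartile scaling and -0.020 in piece 2 alone. Between pieces, leaving out each animal gave 0 to 709 genes and 0 to 1 member in SB, 0 to 3319 genes and 0 to 1 member in WT, and 0 to 544 genes and 0 to 1 member for the difference, where SB has 1, WT 1514 and the difference 212 genes with all animals. Itga4 was called in SB without SB animal 2 (adjusted p of 0.0351 by edgeR's quasi-likelihood test), and the Itgad difference between genotypes was called without WT animal 1 (0.000523, same test). With no filter on low counts, 14 genes were called between SB pieces and 144 between WT animals. Without the replicate block, that is with pieces not paired by animal, 0 genes were called in SB, 0 genes and 0 members in WT, and 0 genes for the difference. No paired analysis was possible across genotypes because the labels tie no SB animal to a given control. The shares and ratios of chains kept their direction under each animal left out and each length scaling run, while the log2 ratio differences ranged from -4.52 to -2.65 (Itgb7 to Itgb1), -2.41 to -0.85 (Itgb2 to Itgb1) and -1.87 to -0.81 (Itgae to Itga4) with each animal left out.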
